A study of Homo sapiens with 2 samples.

Results

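Vasoactive and angiogenic factors are secreted peptides and proteins that act on blood vessels. The 10 genes described here were listed by symbol: the adrenomedullin ligands ADM and ADM2 with the receptor partner RAMP1, the endothelins EDN1 and EDN2 with their processing protease ECE1, the ribonuclease ANG, and the growth factors VEGFA, VEGFB and VEGFC. Of the 10, 9 are among the 20046 genes with a listed probe, by 14 of 30113 such probes, and no probe listed in the platform annotation carries the symbol ADM2. The genes were chosen by symbol but also selected on their difference between the knockdown and control arrays, which was known, so their values are given as a description with no test. Expression was measured on Illumina BeadChips in SNU216 cells, a human cell line established from gastric cancer, with 1 array of TEAD4 knockdown cells and 1 array of cells carrying a non-silencing shRNA control. Both are lines derived from SNU216, and a non-silencing hairpin is a short hairpin RNA meant to target no gene. How many hairpins were used, the time after their delivery and whether the lines were clones were not stated. A probe was taken as detected at a detection p under 0.01, which held for 18648 of 47323 probes on the knockdown array and 18948 on the control array. TEAD4, a DNA-binding partner of YAP and TAZ, had a normalized log2 signal of 7.55 in the knockdown and 10.11 in the control by its brightest probe, 5.89-fold lower. Of 6 epithelial markers 5 were detected, EPCAM, CDH1, KRT8, KRT19 and CLDN4. Among markers of other cell types, 1 of 10 endothelial genes was detected on each array, and PECAM1, CDH5 and VWF were detected on neither. With 1 array per group there was no replicate check on any difference, so precision is limited by that number.

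Adrenomedullin and endothelins are peptide hormones with mostly opposite effects on vessel tone. Adrenomedullin relaxes vessels through a receptor made of CALCRL and a RAMP protein. Endothelins, cut from inactive precursors by endothelin-converting enzymes, can constrict vessels and act through the receptors EDNRA and EDNRB. VEGF proteins bind the receptor tyrosine kinases FLT1, KDR and FLT4 with help from neuropilins, and drive the growth of blood and lymphatic vessels. Angiogenin is a secreted ribonuclease that promotes vessel growth and cuts transfer RNA in stressed cells. Epithelial cancer cells can secrete all of these classes, and hypoxia is a common inducer of ADM and VEGFA.

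Promoter windows reaching from 250 bases before to 50 bases after a gene start were matched by symbol for 8 of the 10 genes, in 15 windows of RefSeq on GRCh38.p14. They were searched on both strands for the TEAD motif CATTCC, which reads GGAATG on the other strand, for the hypoxia response core ACGTG, which reads CACGT on the other strand, and for the AP-1 motif TGANTCA. No windows of RAMP1 and VEGFA were used. The windows of EDN2 and of EDN1 are printed because these related ligands both hold the TEAD motif and differed in their values, and that of ADM because ADM was lower without the motif in its window. Capitals mark the TEAD motif, and each sequence runs 5′ to 3′ along its gene.
EDN2, chr1:41484634-41484933, minus strand: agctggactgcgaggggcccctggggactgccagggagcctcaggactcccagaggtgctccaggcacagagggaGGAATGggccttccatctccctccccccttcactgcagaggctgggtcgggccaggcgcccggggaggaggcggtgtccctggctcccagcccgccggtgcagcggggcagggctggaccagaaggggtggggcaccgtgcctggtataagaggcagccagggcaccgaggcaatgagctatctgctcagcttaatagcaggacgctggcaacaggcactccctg
EDN1, chr6:12289764-12290063, plus strand: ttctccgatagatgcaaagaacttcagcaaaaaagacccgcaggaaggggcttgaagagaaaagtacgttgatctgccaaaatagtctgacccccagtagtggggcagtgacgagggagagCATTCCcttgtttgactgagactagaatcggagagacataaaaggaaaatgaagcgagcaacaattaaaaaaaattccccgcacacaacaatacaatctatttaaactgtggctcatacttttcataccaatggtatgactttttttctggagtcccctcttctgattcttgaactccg
ADM, chr11:10304823-10305122, plus strand: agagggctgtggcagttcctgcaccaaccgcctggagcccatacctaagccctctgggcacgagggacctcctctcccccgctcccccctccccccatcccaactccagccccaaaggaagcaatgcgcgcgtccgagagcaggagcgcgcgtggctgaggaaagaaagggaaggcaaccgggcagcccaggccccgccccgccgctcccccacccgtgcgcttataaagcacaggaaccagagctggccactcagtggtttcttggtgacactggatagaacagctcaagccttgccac
The TEAD motif began 175 bases before the start in EDN2 and 129 bases before it in the second of the 3 EDN1 windows. It was in 2 of the 8 genes' windows, against 16.7% of the 27305 genes in the table and 4928 of its 35116 windows. The hypoxia response core was in windows of 2 of the 8 genes, EDN1 and ANG, against 24.9% of all genes, and the AP-1 motif in 0 of 8, against 9.37%. The ADM window holds none of the 3 motifs. A match describes letters in these windows and shows no binding.

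In the knockdown 3 of the 9 genes were at least 1.5-fold lower, 1 was at least 1.5-fold higher and 5 lay within 1.5-fold. EDN2 differed most, with log2 signals of 6.25 in the knockdown and 8.68 in the control. ANG and ADM were lower too, and the endothelin-converting enzyme gene ECE1 was higher. Of 11720 genes detected on at least 1 array, 16.4% were at least 1.5-fold apart, 9.20% lower and 7.24% higher. At 2-fold, 2 of the 9 genes were apart, EDN2 and ANG, both lower, against 4.15% of detected genes in either direction, 2.34% lower and 1.81% higher. Since the genes were chosen with these differences known, nothing is read from the counts against these shares. The genes on either side of 2-fold were ANG at 2.30-fold and ADM at 1.94-fold, and on either side of 1.5-fold ECE1 at 1.73-fold and VEGFA at 1.29-fold. The median log2 difference of the 9 genes was -0.23, and that of all detected genes -0.04. In these bulk samples fewer cells with a transcript and less of it per cell cannot be told apart.

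**Figure D1:**
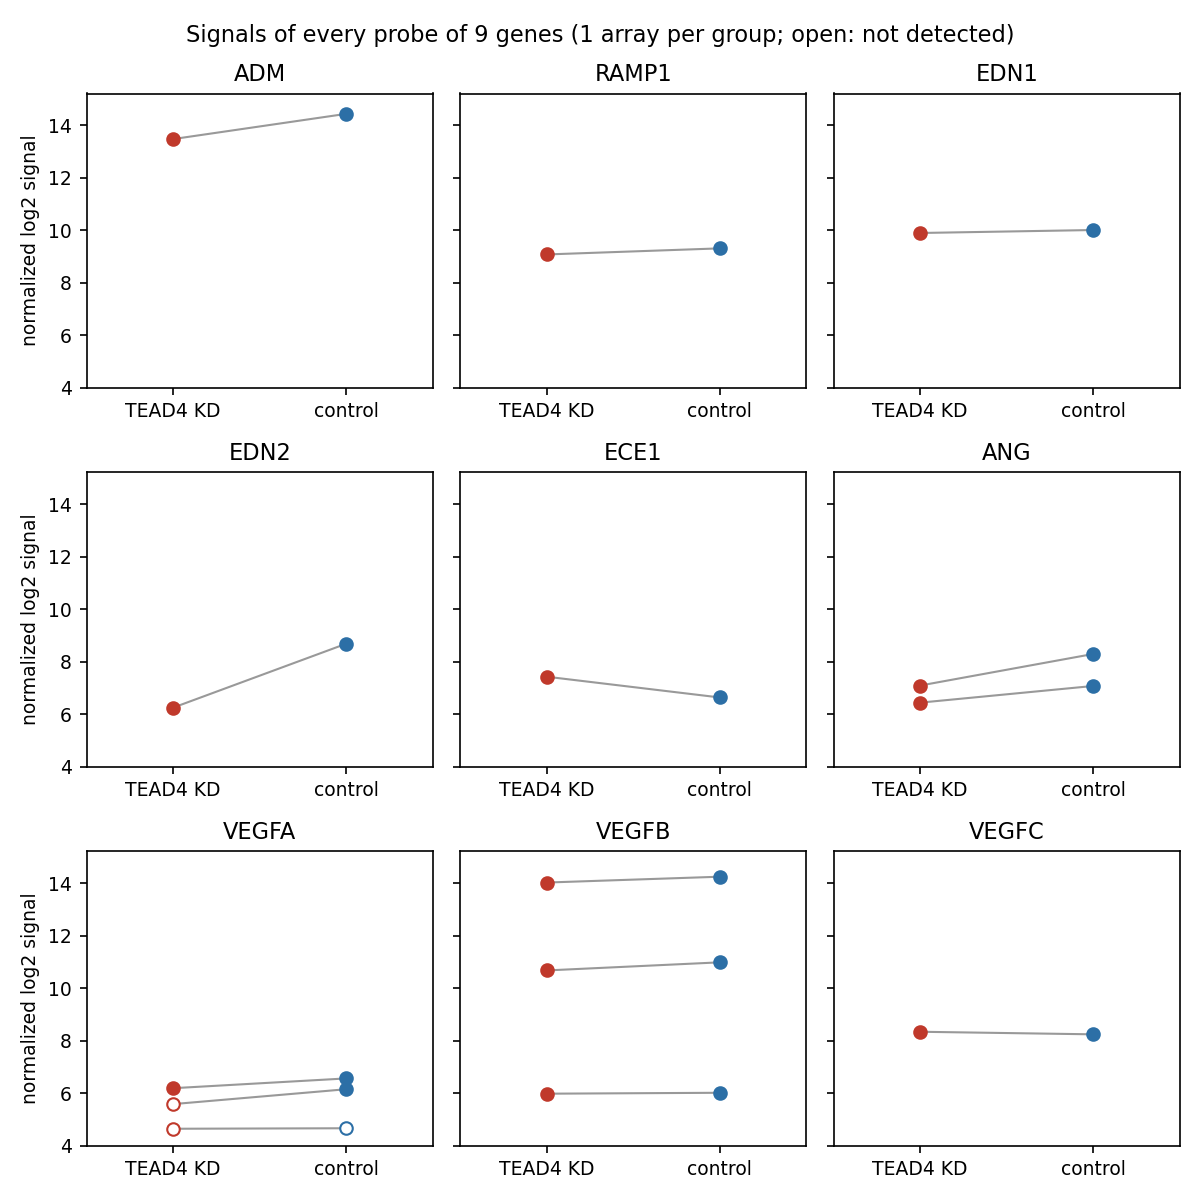
Normalized log2 signal (vertical axis) of every probe of the 9 genes on the TEAD4 knockdown array (left, red) and the control array (right, blue), with 1 array per group, a line joining the 2 values of a probe and open circles for values not detected. The EDN2 line spans the most, with 6.25 in the knockdown and 8.68 in the control, while the VEGFC line is nearly level, with 8.34 in the knockdown and 8.24 in the control.

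EDN2 encodes endothelin 2, a vasoconstrictor peptide close to endothelin 1. Its single probe, ILMN_1680814, had a deposited signal of 59.1 in the knockdown and 408.7 in the control. After normalization the log2 signals were 6.25 in the knockdown and 8.68 in the control, a difference of -2.43 or 5.40-fold. The probe was detected on both arrays. Only 6 of the 11720 detected genes had a lower difference, so EDN2 stood at rank 7 from the lowest. EDN2 lay in group 2 from the dimmest of 4 groups of detected genes by signal. There, 19.6% of genes were at least 1.5-fold apart and 0.102% had the same or a lower difference. The EDN2 difference was 7.91 times the standard deviation (SD) of 0.31 between probes of one gene. That SD comes from the log2 differences of the 2 brightest detected probes of 2497 genes, covers measurement by probe only, and holds no spread between cultures or arrays. Split by brightness, the SD was 0.34 for the dimmer 1248 genes and 0.27 for the brighter 1249. The size of the EDN2 difference depended on the processing: it was -1.70 in the deposited normalized table, where the signals were 165.4 in the knockdown and 537.5 in the control.

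EDN1, which encodes endothelin 1, the main endothelin of vessels, did not follow EDN2. Its probe, ILMN_1682775, had deposited signals of 895.4 in the knockdown and 1048 in the control, and log2 signals of 9.889 in the knockdown and 10.002 in the control. The difference was -0.11, which is 0.37 times the SD between probes, and 41.4% of detected genes had the same or a lower difference. The log2 differences of EDN2 and EDN1 were thus on different sides of the 1.5-fold mark in the same 2 RNA samples.

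ECE1 encodes the membrane metalloprotease that cuts big endothelins to the active peptides. Its probe, ILMN_1672174, had deposited signals of 151.9 in the knockdown and 85.1 in the control. The log2 signals were 7.42 in the knockdown and 6.63 in the control, a difference of 0.79 or 1.73-fold higher. That is the opposite direction to EDN2. The probe lay in the dimmest of 4 groups of detected genes by signal, where 29.4% of genes were at least 1.5-fold apart and 6.38% had the same or a higher difference. In the deposited normalized table the difference was 0.50, below 1.5-fold. An antisense gene, ECE1-AS1, overlaps ECE1 in the RefSeq table, and which strand the probe reads was not tested.

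ADM encodes adrenomedullin, the vasodilator peptide. Its probe, ILMN_1708934, was bright on both arrays, with deposited signals of 10938 in the knockdown and 22311 in the control. The log2 signals were 13.47 in the knockdown and 14.42 in the control, a difference of -0.96 or 1.94-fold. This was 3.12 times the SD between probes. Among the brightest of the 4 groups of detected genes, 0.614% had the same or a lower difference and 4.78% were at least 1.5-fold apart in either direction. The deposited normalized table gave -0.97 for ADM, almost the same value, whereas the EDN2 value differed between the tables.

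RAMP1 encodes a small membrane protein that, with CALCRL, forms the receptor of the related peptide CGRP and also modifies receptors of this family. Its probe, ILMN_1764754, had deposited signals of 502.5 in the knockdown and 637.9 in the control, and log2 signals of 9.07 in the knockdown and 9.30 in the control. The difference of -0.23 is 0.75 times the SD between probes. RAMP1 therefore lay within the spread of probes, as did EDN1.

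ANG encodes angiogenin and had 2 probes, both detected on both arrays. The brighter, ILMN_1760727, had deposited signals of 118.2 in the knockdown and 307.3 in the control. Its log2 signals were 7.09 in the knockdown and 8.29 in the control, a difference of -1.20 or 2.30-fold. It lay in the same signal group as EDN2. There, 19.6% of genes were at least 1.5-fold apart and 1.6% had the same or a lower difference than ANG. The dimmer probe, ILMN_1696974, had deposited signals of 69.5 in the knockdown and 121.2 in the control, and log2 signals of 6.44 in the knockdown and 7.07 in the control. Its difference was -0.63 or 1.55-fold. Both probes were lower in the knockdown and past 1.5-fold, but their differences lay 0.57 apart, against an SD of 0.43 for such pairs over 2497 genes. RNASE4, another secreted ribonuclease, overlaps ANG in the RefSeq table, no listed probe carries its symbol, and whether the ANG probes read its transcripts was not tested.

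VEGFA, the main vessel growth factor, had 3 probes, of which 1 was detected on both arrays. That probe, ILMN_2375879, had deposited signals of 55.9 in the knockdown and 79.9 in the control, and log2 signals of 6.19 in the knockdown and 6.56 in the control, a difference of -0.37. The probe ILMN_1803882 was detected in the control alone, with a deposited signal of 31.0 in the knockdown and 56.3 in the control, and was at least 1.36-fold lower. Such a bound takes the brighter signal over the probe's own dim signal or the lowest signal of any detected probe on the dim array, whichever is higher. The probe ILMN_1693060 was detected on neither array. RefSeq lists 20 transcripts of VEGFA, and the probes carry different ones in the annotation. The difference of the detected probe was 1.21 times the SD between probes.

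VEGFB, a relative of VEGFA that binds FLT1, had 3 probes, all detected on both arrays, with differences from -0.31 to -0.03. The brightest, ILMN_1726981, had deposited signals of 16085 in the knockdown and 19714 in the control, and a log2 difference of -0.22. The next, ILMN_1722855, had deposited signals of 1562 in the knockdown and 2079 in the control and a difference of -0.31. The dimmest, ILMN_1801814, had 46.3 in the knockdown and 49.6 in the control and a difference of -0.03. All lay below 0 and under 1.5-fold. VEGFC, the growth factor of lymphatic vessels, had deposited signals of 296.2 in the knockdown and 295.4 in the control by its probe ILMN_1701204. Its log2 signals were 8.34 in the knockdown and 8.24 in the control, a difference of 0.10, so that VEGFC was nearly equal on the arrays.

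**Figure D2:**
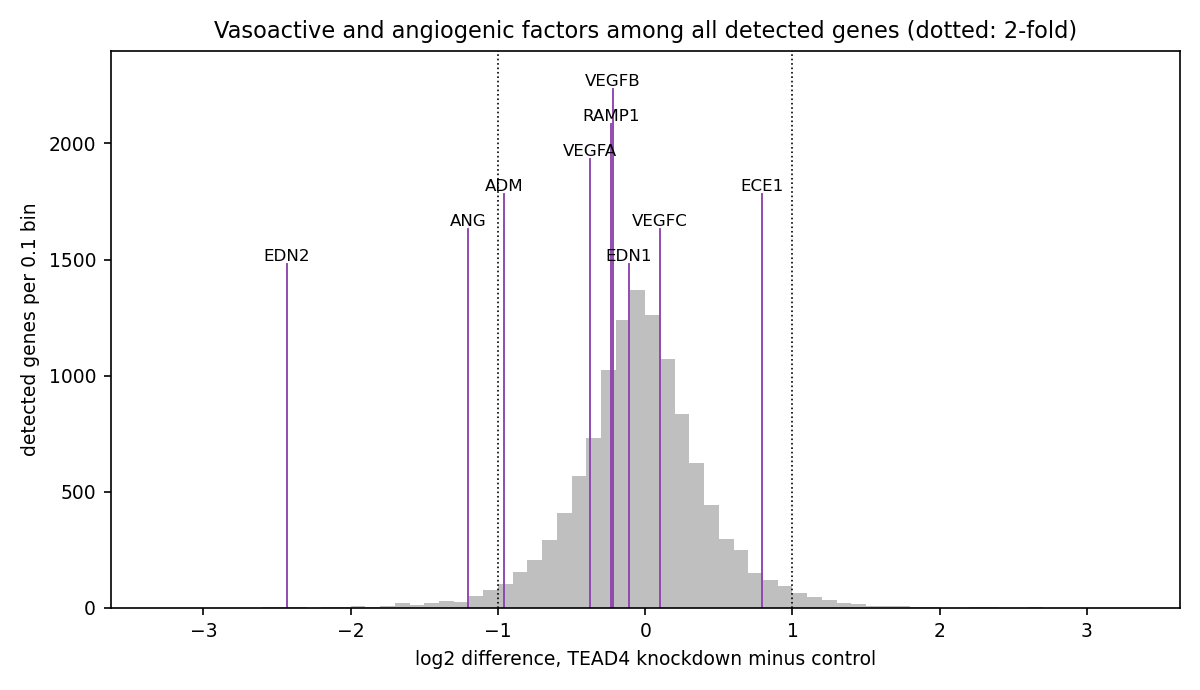
Number of genes (vertical axis) by log2 difference, TEAD4 knockdown minus control (horizontal axis, bins of 0.1), for the 11720 detected genes, with labelled lines at the 9 genes and dotted lines at 2-fold. EDN2 at -2.43 lies in the lower tail, ANG at -1.20 and ADM at -0.96 on either side of 2-fold, ECE1 at 0.79 in the upper part, and the other 5 between -0.37 and 0.10.

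In order of difference the genes ran EDN2 (-2.43), ANG (-1.20), ADM (-0.96), VEGFA (-0.37), RAMP1 (-0.23), VEGFB (-0.22), EDN1 (-0.11), VEGFC (0.10) and ECE1 (0.79). The gap between ANG and ADM is smaller than the 0.31 between probes, and so are those between each neighbouring pair from VEGFA to VEGFC. Of the 9 genes, 7 (77.8%) were below 0, as were 54.3% of all detected genes. Each of the adrenomedullin and endothelin groups had a gene past 1.5-fold and a gene within it, and all 3 VEGF genes lay within it.

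**Figure D3:**
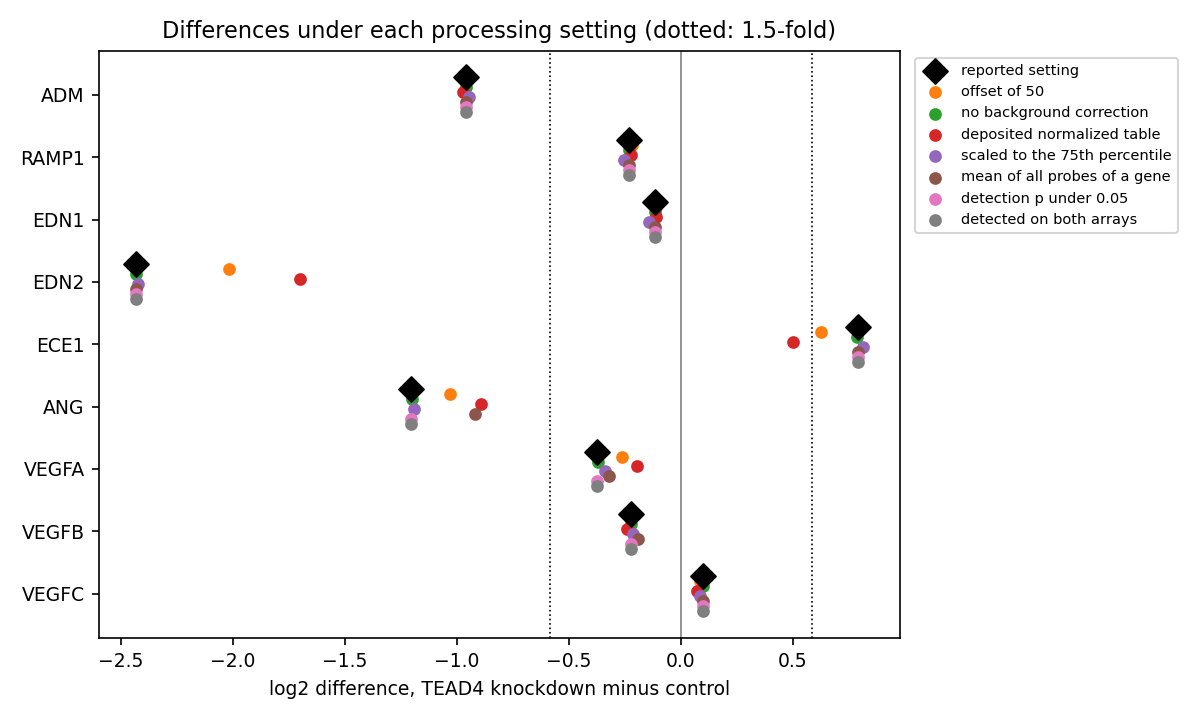
Log2 difference, TEAD4 knockdown minus control (horizontal axis), of each of the 9 genes (rows) under the reported processing (black diamonds) and 7 alternatives (coloured points), with dotted lines at 1.5-fold. EDN2 ranges from -2.43 to -1.70 and ADM only from -0.97 to -0.95, and no gene crosses 0.

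The receptors that answer these ligands were mostly not detected by their listed probes, and whether those probes can read their transcripts was not tested. The lists of receptors and partners used here were written with earlier results of these data known. Over 105 genes of 7 lists, 96 had a listed probe and 37 were detected on at least 1 array. By the normalized values of the brightest probe, 3 of these 37 were past 1.5-fold higher and 5 past 1.5-fold lower, 21.6% in all, near the 16.4% of all detected genes, and their median was -0.02. For FGF1, SEMA3F and UTS2, detected on 1 array only, the bound on the fold is under 1.5. When detection on both arrays was required, 3 of them remained past 1.5-fold, HIF1A, SEMA3A and VIPR1.

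Of the adrenomedullin and CGRP partners, 3 of 11 genes with a probe were detected and 0 were past 1.5-fold. The receptor gene CALCRL was not detected on either array, nor were RAMP3, CALCR, CALCA, CALCB, IAPP, ACKR3 and MME. RAMP2, which turns CALCRL into an adrenomedullin receptor, was detected in the knockdown alone, at least 1.12-fold higher. PAM, which amidates the ADM peptide, had log2 signals of 13.27 in the knockdown and 13.29 in the control, a difference of -0.02. The large difference in the ADM probe thus stood beside a nearly equal signal of its processing enzyme.

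Of the endothelin partners, 4 of 8 with a probe were detected and 0 were past 1.5-fold. None of the 4 EDNRB probes was detected, and no listed probe carries the symbol EDNRA. EDN3, ECEL1 and KEL were also not detected. ECE2, a second endothelin-converting enzyme, had log2 signals of 8.37 in the knockdown and 8.11 in the control by its brightest probe, a difference of 0.25. Another ECE2 probe, ILMN_2275248, was detected in the knockdown alone and was at least 1.89-fold higher. FURIN, a protease that cuts the endothelin precursors before ECE1 does, differed by 0.06.

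Of the angiogenin partners and related ribonucleases, 3 of 8 with a probe were detected and 0 were past 1.5-fold. RNH1, the cytosolic inhibitor that binds angiogenin tightly, had log2 signals of 11.26 in the knockdown and 10.71 in the control, a difference of 0.55, and its other probe differed by 0.24. PLXNB2, a receptor for angiogenin, differed by 0.18. RNASET2 differed by -0.20, and RNASE1, RNASE2, RNASE6, RNASE7 and RNASE8 were not detected.

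Of the VEGF receptors and partners, 5 of 12 were detected, of which 1 was past 1.5-fold higher and 2 past it lower by the normalized values. The receptor genes FLT1, KDR and FLT4 were not detected, and neither were NRP2, VEGFD, ADAMTS3 and HSPG2. NRP1, the neuropilin that binds VEGFA and semaphorin 3A, was detected by both probes, with differences of -0.11 and -0.38. SEMA3A, a semaphorin that competes with VEGF for neuropilin 1, had log2 signals of 9.53 in the knockdown and 10.39 in the control, a difference of -0.86. SEMA3F, a semaphorin that binds neuropilin 2, was detected in the control alone and was at least 1.40-fold lower. PGF, the placental growth factor, which binds FLT1, was detected in the knockdown alone and was at least 1.502-fold higher.

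**Figure D4:**
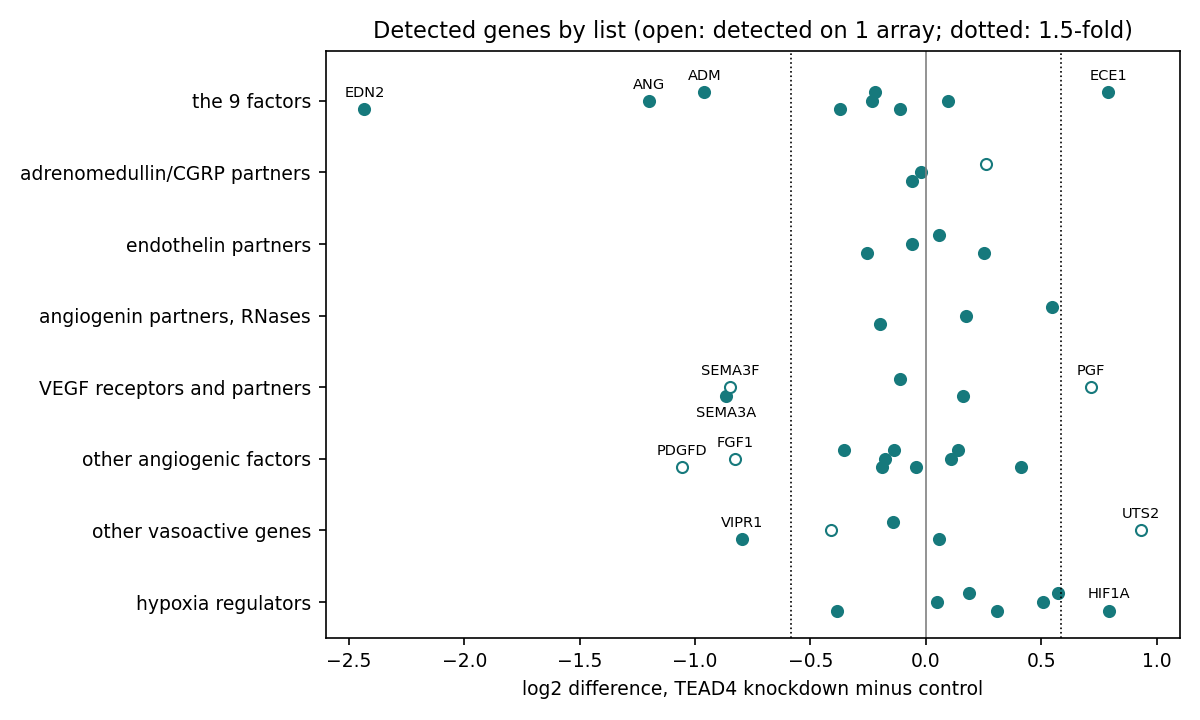
Log2 difference, TEAD4 knockdown minus control (horizontal axis), of the detected genes of each list (rows), with open circles for genes detected on 1 array only and dotted lines at 1.5-fold. In the adrenomedullin, endothelin and angiogenin partner rows every point lies between the dotted lines, while EDN2 stands alone at the left.

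Of the other angiogenic factors, 10 of 21 with a probe were detected, and by the normalized values of the brightest probe 0 were past 1.5-fold higher and 2 past it lower, both detected in the control alone. PDGFD, a platelet-derived growth factor, was at least 1.52-fold lower, and FGF1, a fibroblast growth factor, at least 1.03-fold lower. Dimmer probes of 2 other genes, detected on both arrays, were past 1.5-fold higher. For ANGPTL4, a secreted regulator of lipoprotein lipase and vessels, the probe ILMN_1707727 had log2 signals of 7.80 in the knockdown and 5.69 in the control (2.11), against -0.14 by the brightest probe. For PDGFB, a platelet-derived growth factor, the probe ILMN_2394305 had 9.31 in the knockdown and 8.40 in the control (0.90), against 0.41 by the brightest probe. THBS1, an inhibitor of vessel growth, differed by -0.04. The angiopoietins ANGPT1, ANGPT2 and ANGPT4 and their receptor TEK were not detected, and neither were TIE1, PDGFA, HGF, VASH1, VASH2, SERPINF1 and TNMD.

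Of the other vasoactive genes, 5 of 26 with a probe were detected. UTS2, the precursor of the vasoconstrictor urotensin 2, was detected in the knockdown alone, at least 1.498-fold higher by 1 of its 4 probes. VIPR1, a receptor of vasoactive intestinal peptide, was lower, with log2 signals of 8.95 in the knockdown and 9.75 in the control, a difference of -0.80. The other detected genes, AGTR1, NPR1 and BDKRB2, lay within 1.5-fold. Not detected were AGT, ACE, AGTR2, NPPA, NPPB, NPPC, NPR3, NOS1, NOS2, NOS3, KNG1, BDKRB1, UTS2R, VIP, VIPR2, APLN, APLNR, PTGIS, TBXAS1, GUCY1A1 and GUCY1B1.

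Hypoxia regulators were examined because ADM and VEGFA are hypoxia-induced genes. Of 10 genes 7 were detected, with 1 past 1.5-fold higher and 0 lower by the brightest probe, and a median of 0.31. HIF1A, the oxygen-regulated transcription factor subunit, had log2 signals of 8.90 in the knockdown and 8.10 in the control by the probe with the highest mean, a difference of 0.79. Its other probes gave 0.61 and -0.12, so the probes of HIF1A did not go one way, and their mean did not pass 1.5-fold. EPAS1, the related subunit, differed by 0.51 and EGLN1, an oxygen-sensing hydroxylase, by 0.57. ARNT was lower, with a difference of -0.38, and EGLN2 and HIF1AN differed by 0.19 and 0.05 by their brightest probes. HIF3A, ARNT2 and EGLN3 were not detected. VHL, which marks HIF proteins for degradation, differed by 0.31 by its brightest probe and by 0.60 by each of its other 2.

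Most markers of vessel and stromal cells were not detected or had only a bound. With values under 0 counted as 0, the deposited signals of the 10 endothelial genes summed to 139.4 in the knockdown and 253.9 in the control, with ESAM the only one detected (-0.85). Those of 7 smooth muscle and pericyte genes summed to 1060 in the knockdown and 2152 in the control, with MYH11, DES, RGS5, PDGFRB and CSPG4 detected on neither array and NOTCH3 (-0.89) on both with 1030 in the knockdown and 2079 in the control, nearly the whole sum, and CNN1 was at least 1.27-fold lower. The 6 fibroblast genes summed to 136.0 in the knockdown and 284.8 in the control. Of them, 2 were detected in the knockdown and 4 in the control. COL1A1 (-0.29) and COL1A2 (0.06) were detected on both arrays and lay within 1.5-fold. LUM was at least 2.41-fold lower and DCN at least 1.21-fold lower, both detected in the control alone. Other probes of LUM and DCN were detected on neither array. The 5 leukocyte genes summed to 1844 in the knockdown and 933.4 in the control, most of it CD68 (1.10), with MS4A1 at least 1.04-fold higher and PTPRC, CD3E and CD14 detected on neither array. The epithelial genes summed to 86428 in the knockdown and 91900 in the control, with 5 of 6 detected and KRT18 not detected, and CDH1 was 1.58-fold higher (0.66). The summed endothelial, mural and fibroblast signals were lower in the knockdown, as were EDN2, ANG and ADM. The leukocyte sum was higher and the epithelial sum slightly lower. ESAM made up most of the endothelial sum, as NOTCH3 did of the mural sum. The part of other cells in the EDN2, ANG and ADM differences was not tested.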

How the data were processed

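Total RNA of 2 SNU216-derived lines, 1 array per group, was labelled with biotin as cRNA for Illumina arrays, per the labels. The deposited intensity table is linear and had a background level subtracted before deposit, since 12895 probes on the knockdown array and 12861 on the control array are below 0. Each signal has a deposited detection p-value, per the file headers. In a second deposited intensity table the sorted log2 values of the 2 columns differ by at most 0.0019, and the column medians are 118.7 and 118.7. This table was thus quantile normalized, to a target that is not stated. Its values are linear and 1-colour, so they have no direction or centring. The software is not given in the sources used here.

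Log2 signals were computed with neqc of limma 3.58.1 in R 4.3.3 (normal-exponential background correction, offset 16, quantile normalization). The offset pulls the folds of dim probes towards 1. Each of 20046 genes took the values of its brightest probe over both arrays, with symbols from the platform annotation (30113 probes with 1 symbol, 8 with several, 17202 not listed). By Entrez identifier 30074 of these probes matched RefSeq. A gene was called by size when detected on the brighter array. No test between groups was possible with 1 array each. The scripts were tested on simulated data at the 2-fold cut, and the 1.5-fold cut was not tested in that way. The genes and lists were chosen with earlier results of these data known. The rule for named genes takes TEAD4, every probe of the 10 genes and, per list, up to 3 genes per direction past 1.5-fold and the undetected genes; other genes are further examples chosen after their values were seen. Alternatives changed the offset, background correction, normalization, probe choice and detection rule.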

Additional observations from a re-analysis of the deposited data

How the results depend on the processing

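Of 63 differences of the 9 genes under 7 alternatives, 60 moved by less than the 0.31 between probes and 0 changed sign. Part of this count was fixed in advance. Changes of the detection rule alter only which genes are called, so they could move no difference. Averaging the probes could not move a gene with a single probe. EDN2 was -2.01 with an offset of 50 and -1.70 in the deposited normalized table, and ANG was -0.89 in that table. The count of these genes past 1.5-fold was 4 except in that table, where it was 3 without ECE1 (0.50). Genes at least 2-fold apart numbered 486 as reported, 252 with an offset of 50 and 182 in the deposited normalized table. A larger offset shrinks the folds of dim probes by construction, and for the deposited table the cause was not tested. Receptor and partner genes past 1.5-fold numbered 8 as reported, 4 with an offset of 50, 3 in the deposited normalized table, 5 with the mean of all probes of a gene and 3 when detected on both arrays. At a detection p under 0.05 they numbered 10, with ARNT2 and NOS2 added, both lower. They stayed at 8 without background correction and with scaling to the 75th percentile. No paired analysis was possible because 2 single arrays form no pairs, and no replicate could be left out. Low signal over background limits the folds of VEGFA, ECE1, EDN2 and ANG.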
